A study of Homo sapiens with 60 samples.

Results

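Collagen chain genes were followed in SW1783 cells, a human astrocytoma line, exposed for 24 h to herbal extracts. The members were the protein-coding genes whose symbol reads COL, a number, A and a number: 44 of the 60675 genes in the count table. Of these, 27 were above 1 CPM (the count scaled to a fixed library total) in at least 3 of the 60 libraries and are described: 8 of 11 fibrillar chains, 5 of 6 basement membrane (type IV) chains and 14 of 27 other chains. This threshold used the level over all libraries and not the response to any extract, but the members were chosen with earlier results of these data known.

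Soshiho-tang and Yijin-tang, decoctions given as water extracts, and the ethanol extracts of Zizyphi Semen, of Longan Arillus and of Liriopis seu Ophiopogonis Tuber were each applied at 500 (high), 100 (medium) and 20 (low) µg/mL. The ethanol extract of Schisandrae Fructus was given at 310, 62 and 12.4 µg/mL, that of Polygalae Radix at 30, 6 and 1.2 µg/mL, and that of Aucklandiae Radix at 160, 32 and 6.4 µg/mL. The vehicle was DMSO, for which the sample labels and the design text name different concentrations. Each dose had 3 libraries, except Soshiho-tang with 2 and Polygalae and Aucklandiae with 1, and the vehicle had 3. The design text says that samples with too little RNA were dropped. Nothing says that libraries of a group came from separate cultures, so p-values measure the spread between libraries, which may be technical. Library names begin with a set number that extracts share in pairs, while the vehicle libraries have a set of their own, so each high and medium dose was set against the low dose of its own extract. Treatment against vehicle and library set cannot be told apart.

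Collagens are secreted proteins whose alpha chains wind around one another into a rope-like helix. The fibrillar types I, III, V and XI form the tension-bearing fibres of connective tissue, with types V and XI nucleating and limiting fibre width. Type IV chains build the sheet-like network of basement membranes, and type VI chains form beaded filaments at the cell surface. In brain, collagen is largely a product of vessel walls and meninges, and many glioma lines express it in culture.

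The library totals were 18.73 to 35.52 M counts (median 25.79 M). Mitochondrial genes took 10.13 to 20.3% of counts. The highest share was in the single Polygalae high-dose library, whose TMM scaling factor was 1.217, and in that library VIM, an intermediate filament gene, was at 634.5 CPM against a median of 4910 CPM over all libraries. The defining astroglial markers GFAP, S100B, AQP4, ALDH1L1 and FABP7 were at or near 0 in all 60 libraries (at most 0.3128 CPM, in GFAP), while SOX9 (83.46 CPM), SLC1A3 (30.75 CPM) and NES (6.529 CPM) were present in vehicle-treated cells. All 10 fibroblast and mural markers were detected, led by THY1 at 497.9 CPM in vehicle-treated cells. The endothelial CDH5 and VWF reached at most 0.1886 CPM and the immune AIF1, CD3E and ITGAM at most 0.1978 CPM. Other members of these lists were detected in vehicle-treated cells. Among the endothelial markers KDR was at 32.56 CPM, TEK at 1.202 CPM and PECAM1 at 0.9777 CPM. Among the immune markers CD68 was at 194.4 CPM and PTPRC at 9.507 CPM.

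In vehicle-treated cells the collagen genes together took 1.27 ± 0.03% of all counts (SD, n = 3). Levels of different genes are compared per kilobase of exon. The length joins the exons of all annotated transcripts of a gene, so the ranks depend in part on the annotation. On that scale COL1A1, the major chain of type I collagen, led with 374.6 CPM per kb, ahead of COL6A1 (288.1), COL5A1 (203.5), COL6A2 (179.7) and COL1A2 (155.4). COL5A2 (38.79), COL4A2 (35.49), COL12A1 (31.16) and COL4A1 (21 CPM per kb) came next. COL3A1, the type III chain that usually accompanies type I in soft tissue, was at 4.795 CPM per kb, rank 17 of the chains. Of the described chains 23 were above 1 CPM in all 60 libraries. COL4A4 passed in 8 libraries, COL5A3 in 51, and COL17A1 and COL21A1 in 59 each.

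The 17 other chains were COL2A1, COL4A3, COL6A5, COL6A6, COL9A1, COL9A2, COL9A3, COL10A1, COL11A2, COL19A1, COL20A1, COL22A1, COL23A1, COL24A1, COL25A1, COL26A1 and COL28A1. They include the cartilage chain COL2A1 and the type IX chains that decorate cartilage fibrils. COL9A2 exceeded 1 CPM in 1 library and the rest in none. COL4A3, COL6A6, COL9A2 and COL11A2 still passed the low-count filter of the fit and were tested. The only call among them was COL6A6, lower at the Schisandrae high dose.

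Soshiho-tang gave the replicated contrast with the most chains lower. At the high dose collagen genes took 0.687 ± 0.018% of counts, against 1.15 ± 0.01% at the low dose (SD, n = 2 each). The fall lay mostly in the fibrillar chains, at 0.303% of counts at the high dose against 0.712% at the low dose. Type IV chains took 0.0706% at the high dose and 0.106% at the low dose, and the other chains 0.314% at the high dose and 0.335% at the low dose.

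COL1A2, the second chain of type I collagen, had 626.3 and 607.9 CPM at the Soshiho-tang high dose, against 1592 and 1565 CPM at the low dose. Its log2 difference was -1.36 ± 0.04 (SE), with an adjusted p of 8.75e-27 (edgeR quasi-likelihood test, Benjamini-Hochberg over all 17851 genes tested). COL1A1 had 1413 and 1376 CPM at the high dose, against 3351 and 3257 CPM at the low dose (log2 difference -1.25 ± 0.06, adjusted p = 1.23e-21 in the same edgeR fit). No high-dose library of either chain overlapped the low-dose libraries, and the fitted high-dose levels were 0.391 (COL1A2) and 0.422 (COL1A1) of the low-dose levels. COL5A1, the main type V chain, had 769.5 and 762.1 CPM at the high dose, against 1907 and 1862 CPM at the low dose (log2 -1.30 ± 0.08, edgeR adjusted p = 1.1e-17). COL11A1, a fibre-nucleating chain, had 12.74 and 12.93 CPM at the high dose, against 28.88 and 27.53 CPM at the low dose (log2 -1.14 ± 0.11). COL3A1 had 14.35 and 13.36 CPM at the high dose, against 28.57 and 29.07 CPM at the low dose (log2 -1.06 ± 0.09). In all of these the high-dose libraries lay below every low-dose library. Overlap of libraries is given here and below as description only, because the share of all genes without overlap is not given.

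In all, 17 of the 27 chains were lower at the Soshiho-tang high dose and 0 were higher, where 8.66% of all genes tested were lower and 9.92% higher. The median log2 difference was -0.59 for the chains and 0.00 for all genes tested. By class, 6 of 8 fibrillar chains fell, with COL5A2 the least (log2 -0.39 ± 0.06), as did 4 of 5 type IV chains and 7 of 14 other chains. Among the other chains COL14A1, which binds along fibrils, fell by 0.775 on the log2 scale, COL8A1 of vessel and corneal networks fell by 0.765, COL18A1, the basement membrane source of endostatin, fell by 0.76, and COL13A1, a membrane-spanning chain, fell by 0.73. COL7A1 of the anchoring fibrils (-0.59), COL16A1 (-0.52) and COL21A1 (-0.40) completed the called chains.

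**Figure D1:**
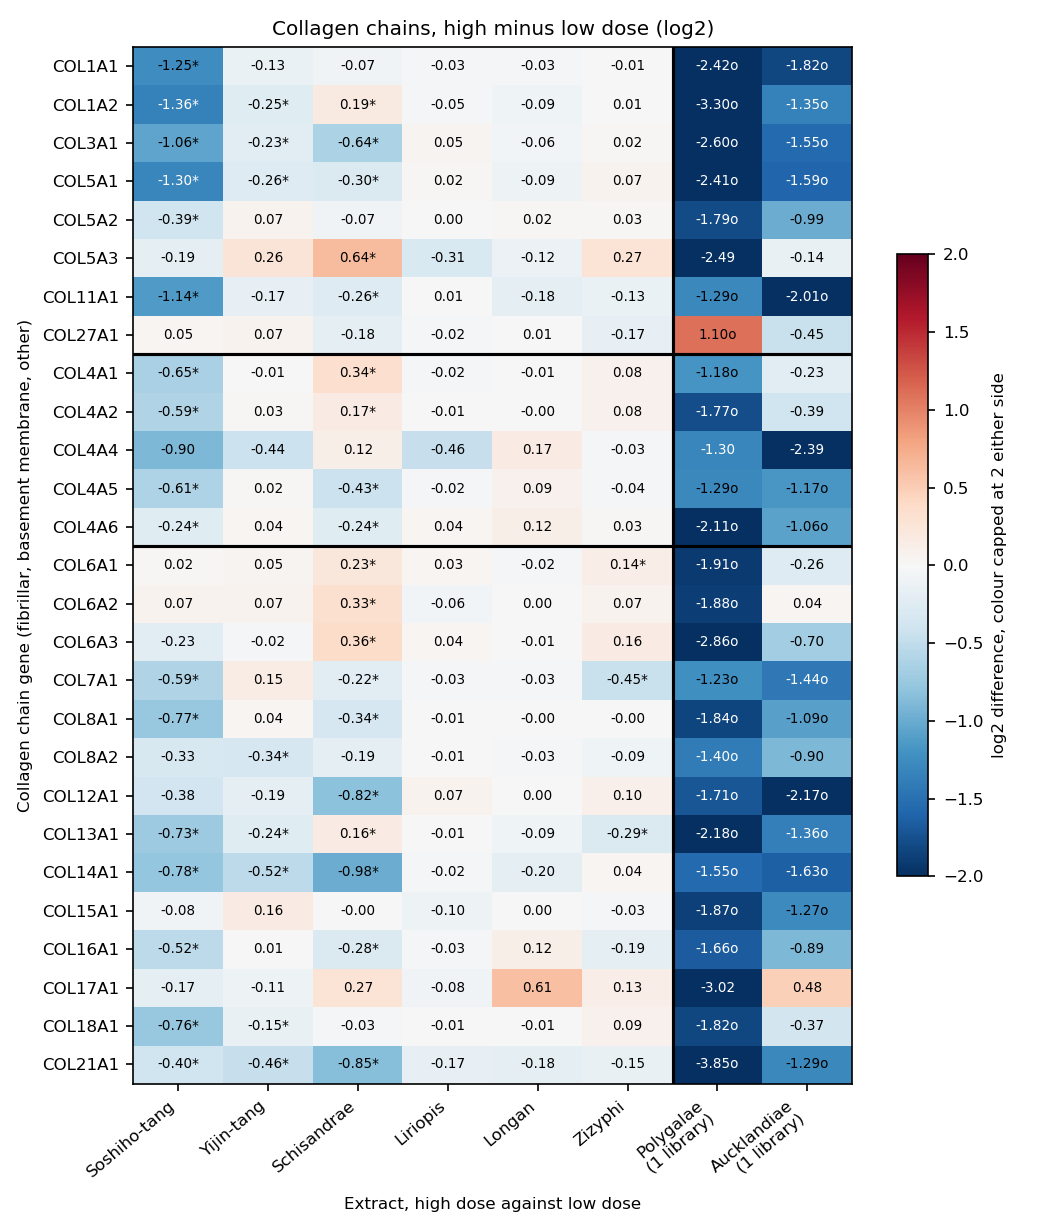
Log2 difference between the high and the low dose for each of the 27 collagen chains (rows, in classes set apart by black lines) in each extract (columns). An asterisk marks an edgeR adjusted p below 0.05, and a circle marks a difference of at least 2-fold with 5 CPM or more in the extracts with 1 library a dose. In the Soshiho-tang column 17 chains carry an asterisk and all 17 are negative, while the Liriopis and Longan columns carry none.

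Type VI chains were not called under Soshiho-tang. COL6A1 had 1539 and 1418 CPM at the high dose, against 1467 and 1444 CPM at the low dose, with overlapping libraries and a log2 difference of 0.02 (95% interval -0.074 to 0.116). COL6A2 had 1008 and 943.4 CPM at the high dose, against 956.7 and 901.5 CPM at the low dose (log2 0.069, 95% interval -0.066 to 0.205). COL6A3 had 115.3 and 121.2 CPM at the high dose, against 144 and 133.7 CPM at the low dose without overlap (log2 -0.232, 95% interval -0.51 to 0.046). COL27A1, a fibrillar chain of cartilage, was not called either (log2 0.05, 95% interval -0.15 to 0.24). COL12A1, a fibril-associated chain, had 203.8 and 218.3 CPM at the high dose, against 278.6 and 268.9 CPM at the low dose. Its groups did not overlap, yet its adjusted p was 0.174 (log2 -0.38 ± 0.19, edgeR). Its spread across libraries of other groups was wide, with 151.5 to 308 CPM among the 3 Longan medium-dose libraries.

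**Figure D2:**
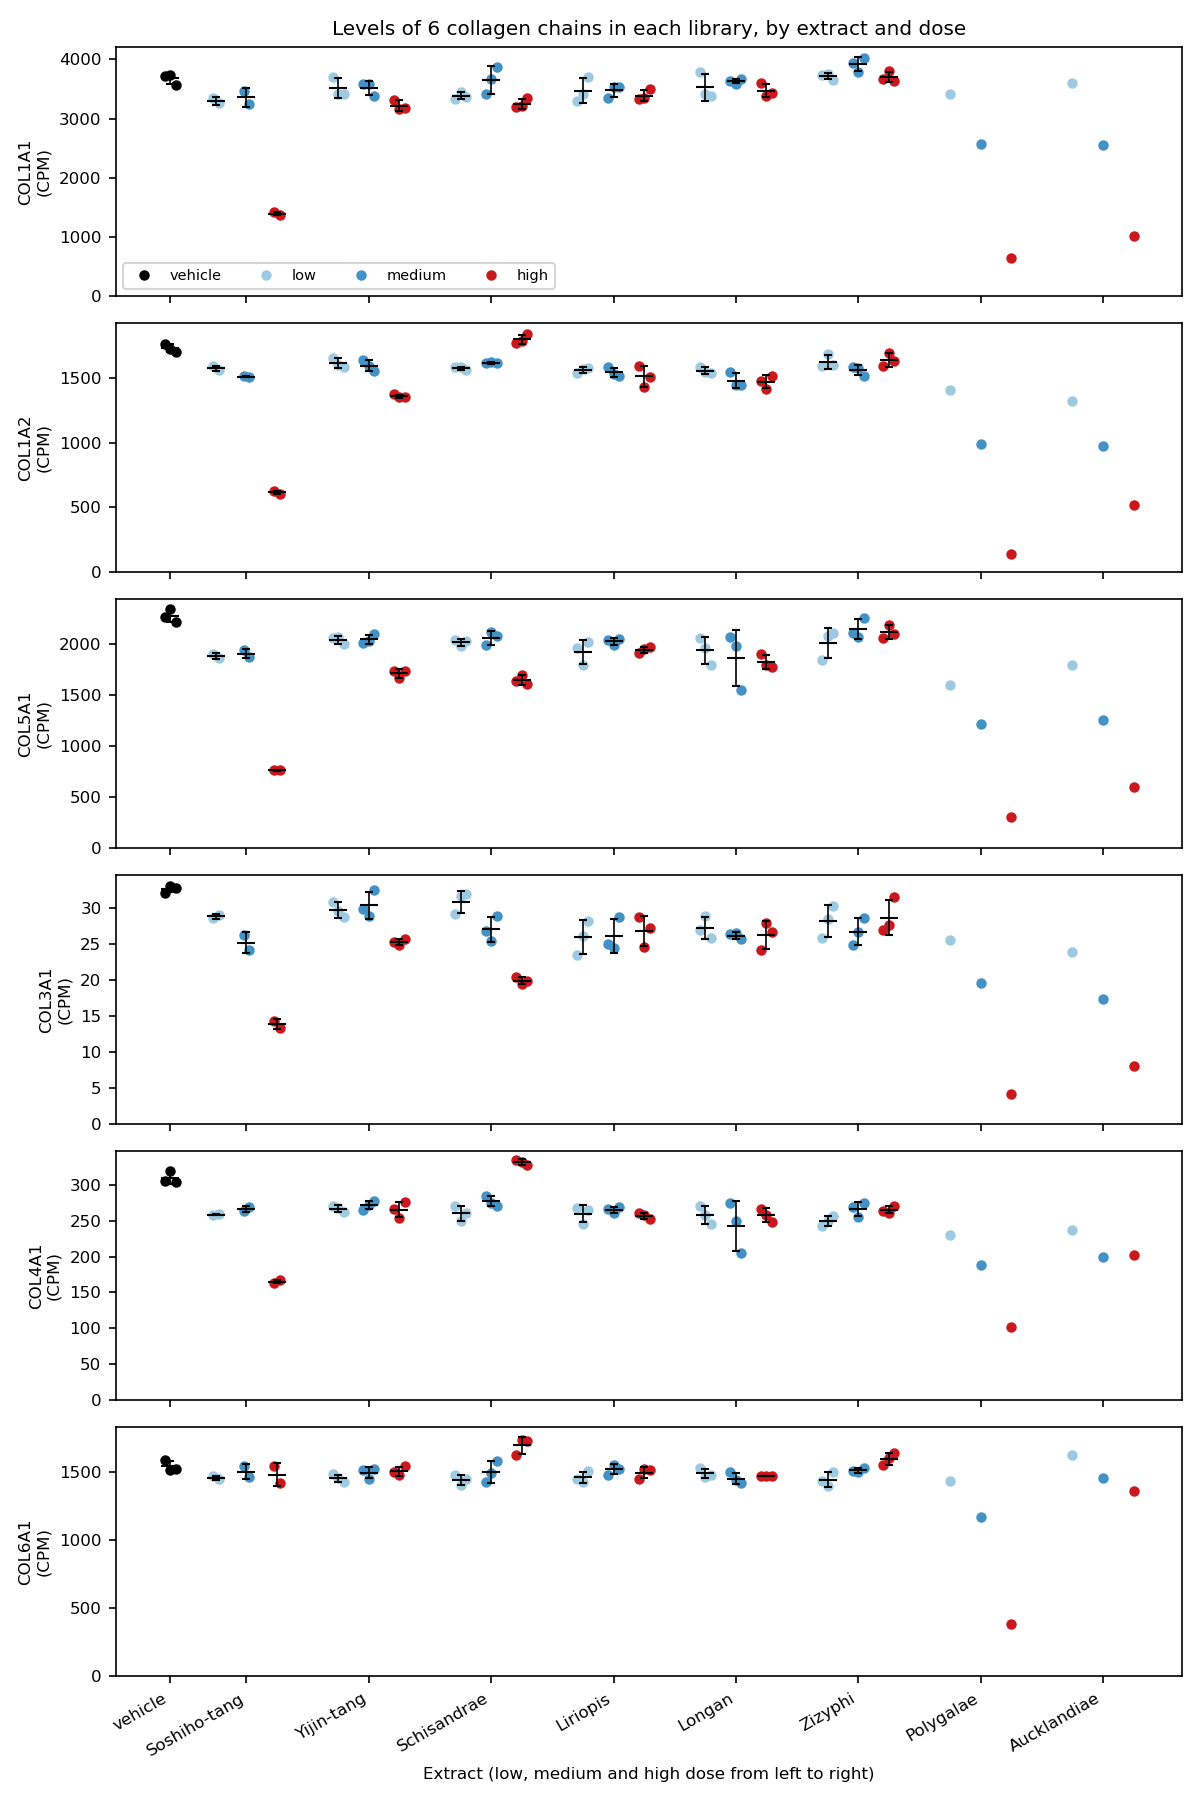
TMM-scaled CPM of 6 chains (panels) in every library, with each extract's low, medium and high dose from left to right and the vehicle at the left edge. Points are libraries, and bars give the mean and SD where a dose has 2 or 3 libraries. The 2 Soshiho-tang high-dose libraries lie at 1376 and 1413 CPM for COL1A1, below the Soshiho-tang low-dose libraries at 3257 and 3351 CPM, whereas COL6A1 overlaps between those doses.

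Yijin-tang, from the same library set, had smaller differences. COL1A2 had 1376, 1353 and 1355 CPM at the high dose, against 1660, 1605 and 1584 CPM at the low dose (log2 -0.25 ± 0.035, edgeR adjusted p = 1.54e-06). COL5A1 had 1740, 1667 and 1737 CPM at the high dose, against 2063, 2070 and 2002 CPM at the low dose (log2 -0.26 ± 0.06, adjusted p = 0.00443). COL1A1 had 3318, 3155 and 3185 CPM at the high dose, against 3711, 3420 and 3420 CPM at the low dose. The libraries of COL1A1 did not overlap either, but it did not pass (log2 -0.13 ± 0.045, edgeR adjusted p = 0.0733). The ratio of COL1A1 to COL1A2 counts was 2.36 ± 0.04 at the high dose and 2.18 ± 0.05 at the low dose (SD, n = 3 each).

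At the Yijin-tang high dose 8 of 27 chains were lower and 0 were higher, against 3.39% of all genes lower and 3.61% higher. They were 3 fibrillar chains and 5 others, and no type IV chain. COL14A1 (log2 -0.52 ± 0.12), COL21A1 (-0.46 ± 0.10) and COL8A2 (-0.34 ± 0.09) moved most, and COL5A1, COL1A2, COL13A1 (-0.24), COL3A1 (-0.23) and COL18A1 (-0.15) made up the rest. The count was 5 without high-dose replicate 2 or 3 or without low-dose replicate 2 or 3, and 4 when no low-count filter was used. The chains named next do not account for all of these losses. The call on COL3A1 was lost without any single high-dose library or without low-dose replicate 1 or 2 (edgeR adjusted p 0.0764 to 0.151). COL8A2 lost its call without replicate 3 of either dose (adjusted p = 0.206 without the high-dose and 0.121 without the low-dose library), in DESeq2 (0.0546) and when only the compared groups were fitted (0.0601).

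The dose effects of both decoctions were compared directly in the same edgeR fit. The high-minus-low difference was more negative for Soshiho-tang than for Yijin-tang in 14 of 27 chains and less negative in 0, where 4.3% of all genes had a more negative difference. COL1A1 differed by -1.12 ± 0.07 (adjusted p = 5.9e-16), and the log2 values were -1.11 ± 0.06 for COL1A2 and -1.045 ± 0.097 for COL5A1. COL11A1 (-0.967 ± 0.137) and COL3A1 (-0.825 ± 0.116) followed. The type IV chains COL4A1 (-0.64), COL4A2 (-0.62) and COL4A5 (-0.64) were among the 14.

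Schisandrae Fructus left the total collagen share at 1.19 ± 0.03% at the high dose and 1.19 ± 0.01% at the low dose (SD, n = 3 each), with chains moving both ways. At the high dose 8 of 27 chains were higher, against 22.3% of all genes tested, and 11 were lower, against 23.6% of all genes tested. The median log2 difference of the chains was -0.07 and that of all genes 0.00. Both directions occurred in each class: 2 of 8 fibrillar chains were higher and 3 lower, 2 of 5 type IV chains higher and 2 lower, and 4 of 14 other chains higher and 6 lower.

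The type I chains diverged. COL1A2 had 1774, 1792 and 1843 CPM at the Schisandrae high dose, against 1584, 1587 and 1563 CPM at the low dose (log2 0.187 ± 0.035, edgeR adjusted p = 2.08e-05). COL1A1 had 3192, 3208 and 3347 CPM at the high dose, against 3338, 3456 and 3370 CPM at the low dose, with overlap and no call (log2 -0.065 ± 0.045, adjusted p = 0.243). The ratio of COL1A1 to COL1A2 counts was 1.80 ± 0.01 at the high dose and 2.15 ± 0.04 at the low dose, and its libraries did not overlap. COL3A1 had 20.37, 19.43 and 19.84 CPM at the high dose, against 29.11, 31.64 and 31.89 CPM at the low dose (log2 -0.64 ± 0.07, adjusted p = 6.08e-10 in edgeR). COL5A1 had 1639, 1703 and 1608 CPM at the high dose, against 2041, 1980 and 2035 CPM at the low dose (log2 -0.30 ± 0.06). COL11A1 was lower as well (-0.26 ± 0.08).

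All 3 described type VI chains were higher at the Schisandrae high dose. COL6A1 had 1620, 1736 and 1726 CPM at the high dose, against 1475, 1402 and 1448 CPM at the low dose (log2 0.23 ± 0.04). COL6A2 had 1017, 1161 and 1176 CPM at the high dose, against 913.9, 865.2 and 890.7 CPM at the low dose (log2 0.325 ± 0.055). COL6A3, the longest type VI chain, had 192, 185.1 and 171.5 CPM at the high dose, against 143.4, 142.9 and 139.7 CPM at the low dose (log2 0.36 ± 0.11, edgeR adjusted p = 0.00711). No libraries overlapped between the doses in these chains. COL6A6, a type VI chain below the member threshold, went the other way (log2 -1.258, edgeR adjusted p = 0.0498). It was at most at 0.531 CPM in any library.

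Fibril-associated chains were lower at the Schisandrae high dose. COL14A1 had 7.501, 7.031 and 7.592 CPM at the high dose, against 13.96, 13.26 and 16.59 CPM at the low dose (log2 -0.985 ± 0.122, edgeR adjusted p = 6.71e-09). COL21A1 had 3.751, 3.697 and 4.147 CPM at the high dose, against 7.075, 6.819 and 6.902 CPM at the low dose (log2 -0.85 ± 0.10). COL12A1 had 192.3, 167.8 and 151.6 CPM at the high dose, against 297.1, 288.9 and 311.7 CPM at the low dose (log2 -0.82 ± 0.15). High-dose levels of COL14A1 and COL21A1 were 0.505 and 0.556 of the low-dose levels, and no libraries overlapped in any of these chains. COL16A1 (-0.28), COL8A1 (-0.34) and COL7A1 (-0.22) were also lower. COL5A3 (log2 0.635 ± 0.222) and COL13A1 (0.16 ± 0.06) were called higher although their libraries overlapped between doses. COL5A3, at 1.79 to 2.20 CPM at the high dose and 0.904 to 1.84 CPM at the low dose, lost its call without low-dose replicate 1 or 2 or high-dose replicate 3 (edgeR adjusted p 0.0734 to 0.154).

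The type IV genes lie in head-to-head pairs, each pair sharing the stretch between its start sites: COL4A1 and COL4A2 on chromosome 13, with RefSeq start sites 127 bases apart, and COL4A5 and COL4A6 on chromosome X, 380 bases apart. The promoter windows, taken from RefSeq (GRCh38.p14), run from 250 bases before to 50 after the start. One window of each type IV pair is shown because the members of each pair moved in one direction under Schisandrae, and that of COL5A1 because this chain was lower under Soshiho-tang, Yijin-tang and Schisandrae. Capitals mark a CCAAT box, a GC box (the letters GGGCGG) or a TATA box (the letters TATAAA) on either strand. The windows of COL4A1 (chr13:110307108-110307407, minus strand), COL4A5 (chrX:108439588-108439887, plus strand) and COL5A1 (chr9:134641553-134641852, plus strand) read 5′ to 3′ as follows.
COL4A1: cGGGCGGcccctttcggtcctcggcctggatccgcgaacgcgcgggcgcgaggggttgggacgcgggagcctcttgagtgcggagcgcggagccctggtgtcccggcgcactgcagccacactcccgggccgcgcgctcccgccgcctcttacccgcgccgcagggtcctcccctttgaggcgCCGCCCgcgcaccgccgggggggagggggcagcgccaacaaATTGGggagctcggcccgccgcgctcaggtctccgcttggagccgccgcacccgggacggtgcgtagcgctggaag
COL4A5: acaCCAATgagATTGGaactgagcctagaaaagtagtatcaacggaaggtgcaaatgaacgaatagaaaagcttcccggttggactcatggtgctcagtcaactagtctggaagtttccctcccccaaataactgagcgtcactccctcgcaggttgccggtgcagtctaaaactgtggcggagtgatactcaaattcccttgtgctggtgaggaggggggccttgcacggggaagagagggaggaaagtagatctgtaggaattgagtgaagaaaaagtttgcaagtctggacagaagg
COL5A1: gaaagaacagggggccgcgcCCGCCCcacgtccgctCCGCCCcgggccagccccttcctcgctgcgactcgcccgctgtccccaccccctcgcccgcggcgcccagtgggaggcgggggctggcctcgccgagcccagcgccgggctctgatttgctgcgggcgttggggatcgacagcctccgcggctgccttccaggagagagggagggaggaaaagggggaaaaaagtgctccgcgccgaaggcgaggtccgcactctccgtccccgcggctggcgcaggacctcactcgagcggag

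The COL4A2 window shares 226 of its 300 bases with that of COL4A1, and the COL4A6 window 121 with that of COL4A5. The first pair carries GC boxes (2 in the COL4A1 window and 1 in the COL4A2 window), and none were found in the second pair's windows. Windows were matched for 20 of the 27 chains. COL1A1, COL1A2, COL3A1, COL5A2, COL6A1, COL8A1 and COL14A1 had none. A box in the shared part of a type IV pair is counted in both windows. The CCAAT letters were in 7 of the 20 (35%), against 35.7% of all 27305 promoters, the GC box letters (GGGCGG) in 14 (70%), against 44.6%, and the TATA letters (TATAAA) in 4 (20%), against 12%. All were searched on both strands. A match describes the letters only.

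Under Schisandrae the COL4A1 and COL4A2 pair was higher and the COL4A5 and COL4A6 pair lower. COL4A1 had 334.9, 332 and 327.2 CPM at the high dose, against 270.7, 249.4 and 261.3 CPM at the low dose (log2 0.343 ± 0.055, edgeR adjusted p = 1.45e-06). COL4A2 had 657, 694.9 and 683.5 CPM at the high dose, against 607.5, 581.8 and 615.3 CPM at the low dose (log2 0.17 ± 0.04). These are the chains of the common type IV network, and neither overlapped between doses. COL4A5 had 87.82, 84.47 and 92.8 CPM at the high dose, against 114.8, 121.9 and 119.2 CPM at the low dose (log2 -0.43 ± 0.05, adjusted p = 6.43e-09, edgeR). COL4A6 had 65.89, 60.28 and 64.63 CPM at the high dose, against 74.21, 74.93 and 76.07 CPM at the low dose (log2 -0.24 ± 0.06). These chains, which assemble with one another in some epithelial and smooth muscle basement membranes, did not overlap between doses either. Under Soshiho-tang both pairs were lower: COL4A1 (log2 -0.65 ± 0.07), COL4A2 (-0.59 ± 0.05), COL4A5 (-0.61 ± 0.07) and COL4A6 (-0.24 ± 0.08).

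**Figure D3:**
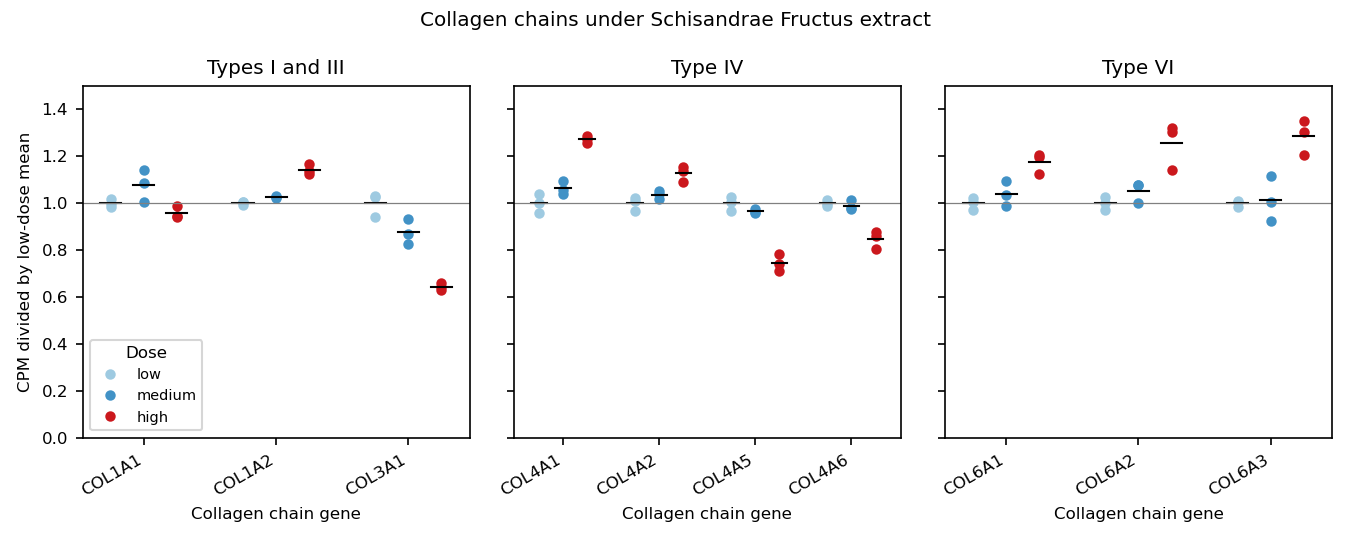
CPM of 10 chains under Schisandrae Fructus at the low, medium and high dose, each divided by the mean of the 3 low-dose libraries, so that the grey line at 1 is the low-dose mean. Points are libraries and bars are means of 3. COL4A1 and COL4A2 lie above the line and COL4A5 and COL4A6 below it in every high-dose library, and every type VI high-dose library lies above it.

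With the 3 vehicle libraries as reference 3 chains were higher under Schisandrae (23.4% of all genes). Against the 3 vehicle libraries, which had 1734 CPM of COL1A2, 309.5 CPM of COL4A1 and 1.408 CPM of COL5A3 on average, these chains were no longer called (log2 0.05, 0.09 and 0.46; edgeR adjusted p = 0.279, 0.18 and 0.0875). COL4A2 and COL6A3 changed sign against vehicle (log2 -0.023 and -0.004). Against vehicle 12 chains were lower (26.7% of all genes), and 11 were lower against the low dose.

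Liriopis, in the same library set as Schisandrae, had 0 chains called at the high dose, where 0% of all genes were called, and DESeq2 also called 0 chains. An unadjusted p below 0.05 in edgeR was found for 0 chains and for 463 of all 17851 genes tested under Liriopis. Its chains ran from -0.46 to 0.07 on the log2 scale, and the 8 chains followed in every extract from -0.046 (COL1A2) to 0.051 (COL3A1). In the direct comparison the high-minus-low difference was more positive for Schisandrae than for Liriopis in 6 of 27 chains (15% of all genes) and more negative in 9 (16.1% of all genes). COL14A1 (-0.97 ± 0.17), COL12A1 (-0.888 ± 0.215), COL3A1 (-0.69 ± 0.10) and COL21A1 (-0.68 ± 0.14) led the negative side. COL5A3 (0.94 ± 0.33), COL6A2 (0.38 ± 0.08) and COL4A1 (0.36 ± 0.08) led the positive side, and COL6A3 was not called (0.322 ± 0.158). COL5A3 lost this call without Schisandrae low-dose replicate 1 or 2, Schisandrae high-dose replicate 3 or replicate 3 of either Liriopis dose (edgeR adjusted p 0.055 to 0.0962), and COL4A6 lost it without Schisandrae high-dose replicate 2 (0.0512). COL16A1 (-0.25 ± 0.10) lost it without 9 of the 12 libraries in turn (0.0535 to 0.192), and also in DESeq2 (0.0529), with DESeq2 size factors (0.0526), with only the compared groups (0.0728) and without a low-count filter (0.0984). Without that filter COL4A2 (0.125) and COL6A1 (0.0717) lost it as well.

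Zizyphi Semen changed 3 of 27 chains at the high dose, where 5.78% of all genes were called. COL7A1 had 142, 132.4 and 148.6 CPM at the high dose, against 177, 197.7 and 200.3 CPM at the low dose (log2 -0.45 ± 0.07, edgeR adjusted p = 8.17e-06). COL13A1 had 14.53, 14.21 and 14.77 CPM at the high dose, against 18.21, 17.93 and 17.11 CPM at the low dose (log2 -0.295 ± 0.067). COL6A1 had 1548, 1600 and 1637 CPM at the high dose, against 1430, 1397 and 1499 CPM at the low dose (log2 0.14 ± 0.04, adjusted p = 0.019). Groups did not overlap in these chains. COL6A1 lost its call without low-dose replicate 1 or 2 or high-dose replicate 2 or 3 (edgeR adjusted p 0.0662 to 0.138), when only the compared groups were fitted (0.277) and without a low-count filter (0.324).

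Longan Arillus, from the same library set, had 0 chains called at the high dose, with 0.936% of all genes called, and 0 in DESeq2. An unadjusted p below 0.05 in edgeR was found for 3 chains and for 1840 of all 17851 genes tested. Without low-dose replicate 3 the count of called chains was 1. The 8 chains followed in every extract ran from -0.094 (COL5A1) to -0.003 (COL4A2). COL17A1, a hemidesmosomal chain of epithelia, came closest with 3.788, 3.272 and 2.815 CPM at the high dose, against 1.793, 1.92 and 2.8 CPM at the low dose (log2 0.606 ± 0.175, edgeR adjusted p = 0.0881). The lowest of its high-dose libraries lay just above the highest low-dose library. In the direct comparison COL7A1 alone differed between Longan and Zizyphi (log2 0.42 ± 0.09, edgeR adjusted p = 0.00431), with 3.97% of all genes called. The number of such chains was 2 without Zizyphi low-dose replicate 1 or 3 or without Longan high-dose replicate 2, 2 in DESeq2, and 0 when only those groups were fitted.

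At the medium dose no chain was called in the 6 replicated extracts. All genes were called at 0.0224% for Yijin-tang, 0.0112% for Soshiho-tang, 0.0392% for Schisandrae and 0% for Liriopis, Longan and Zizyphi. Chains with an unadjusted p below 0.05 in edgeR numbered 0 for Yijin-tang, 3 for Soshiho-tang, 1 for Liriopis, 4 for Schisandrae, 3 for Longan and 2 for Zizyphi, and DESeq2 called 0 in each. Among all 17851 genes tested, such an unadjusted p was found in 915 for Yijin-tang, 469 for Soshiho-tang and 1300 for Liriopis. The numbers were 832 for Schisandrae, 1022 for Longan and 679 for Zizyphi. Median log2 differences of the chains lay between -0.05 for Longan and 0.04 for Zizyphi. COL1A2 had 1517 and 1509 CPM at the Soshiho-tang medium dose, against 1592 and 1565 CPM at the low dose. COL3A1 had 26.82, 25.46 and 28.82 CPM at the Schisandrae medium dose, against 29.11, 31.64 and 31.89 CPM at the low dose. Longan medium-dose replicate 3 stood apart for several chains, with 151.5 CPM of COL12A1 against 308 and 300.8 CPM in the other two libraries and 82.55 CPM of COL6A3 against 149 and 136.1 CPM. The count of 0 called chains for Longan medium was the same without it. Longan low-dose replicate 3 was also the lowest of its dose, with 232.1 CPM of COL12A1 and 113.5 CPM of COL6A3.

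Polygalae Radix had 1 library a dose, so its differences have no replicate check and no p-value. Collagen genes took 1.05% of counts at the low dose, 0.854% at the medium dose and 0.287% at the high dose (exact 95% binomial intervals 1.05 to 1.06%, 0.851 to 0.858% and 0.285 to 0.289%, which cover counting error only). At the high dose 23 of 27 chains were at least 2-fold lower with 5 CPM or more in either library, where 9.51% of all genes were. By the same rule 1 was higher, where 4.92% of all genes were. These shares are of all 17851 genes, which include those below 5 CPM. COL17A1 (-3.02), COL5A3 (-2.49) and COL4A4 (-1.305) were also over 2-fold lower, but below 5 CPM. COL1A2 had 143.1 CPM at the high dose, against 1410 CPM at the low dose (log2 -3.30). COL21A1 had 0.3489 CPM at the high dose, against 6.079 CPM at the low dose (log2 -3.85), COL6A3 had 13.83 CPM at the high dose, against 100.9 CPM at the low dose (-2.86), and COL3A1 had 4.155 CPM at the high dose, against 25.52 CPM at the low dose (-2.60). COL1A1 had 638.8 CPM at the high dose, against 3413 CPM at the low dose (-2.42). The type VI chain COL6A1 had 381.6 CPM at the high dose, against 1434 CPM at the low dose (-1.91). COL27A1 was the chain that was higher, with 27.85 CPM at the high dose, against 12.93 CPM at the low dose. The median log2 difference was -1.84 for the chains and 0.02 for all genes.

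At the Polygalae medium dose 0 chains passed 2-fold with 5 CPM or more (0.134% of all genes). Of the 27 differences 25 were below 0, with a median of -0.38. COL17A1 (-1.54) and COL5A3 (-1.047) were over 2-fold lower, but below 5 CPM. COL1A2 was at 1410, 994.6 and 143.1 CPM from the low to the high dose, and COL5A1 at 1598, 1217 and 301.1 CPM.

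Aucklandiae Radix, also with 1 library a dose, had 1.10% of counts in collagen genes at the low dose, 0.882% at the medium dose and 0.580% at the high dose (exact 95% binomial intervals 1.098 to 1.106%, 0.878 to 0.886% and 0.577 to 0.583%). By the same 2-fold and 5 CPM rule 14 of 27 chains were lower at the high dose and 0 were higher. Of all genes 3.5% were lower. COL4A4 was over 2-fold lower at the high (-2.39) and the medium dose (-2.36), but below 5 CPM. COL12A1 had 49.41 CPM at the high dose, against 222.6 CPM at the low dose (log2 -2.17). COL11A1 had 5.432 CPM at the high dose, against 22.18 CPM at the low dose (-2.01), and COL1A1 had 1020 CPM at the high dose, against 3608 CPM at the low dose (-1.82). COL14A1 (-1.63) and COL5A1 (-1.59) followed. The type VI chains were within 2-fold, with COL6A2 at 941.4 CPM at the high dose, against 916.4 CPM at the low dose, and COL6A1 at 1362 CPM at the high dose, against 1626 CPM at the low dose. COL4A1 (-0.23) and COL4A2 (-0.39) stayed within 2-fold, while COL4A5 (-1.17) and COL4A6 (-1.06) were past it. At the medium dose 0 chains passed (0.19% of all genes) and 25 of 27 differences were below 0, with a median of -0.27.

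**Figure D4:**
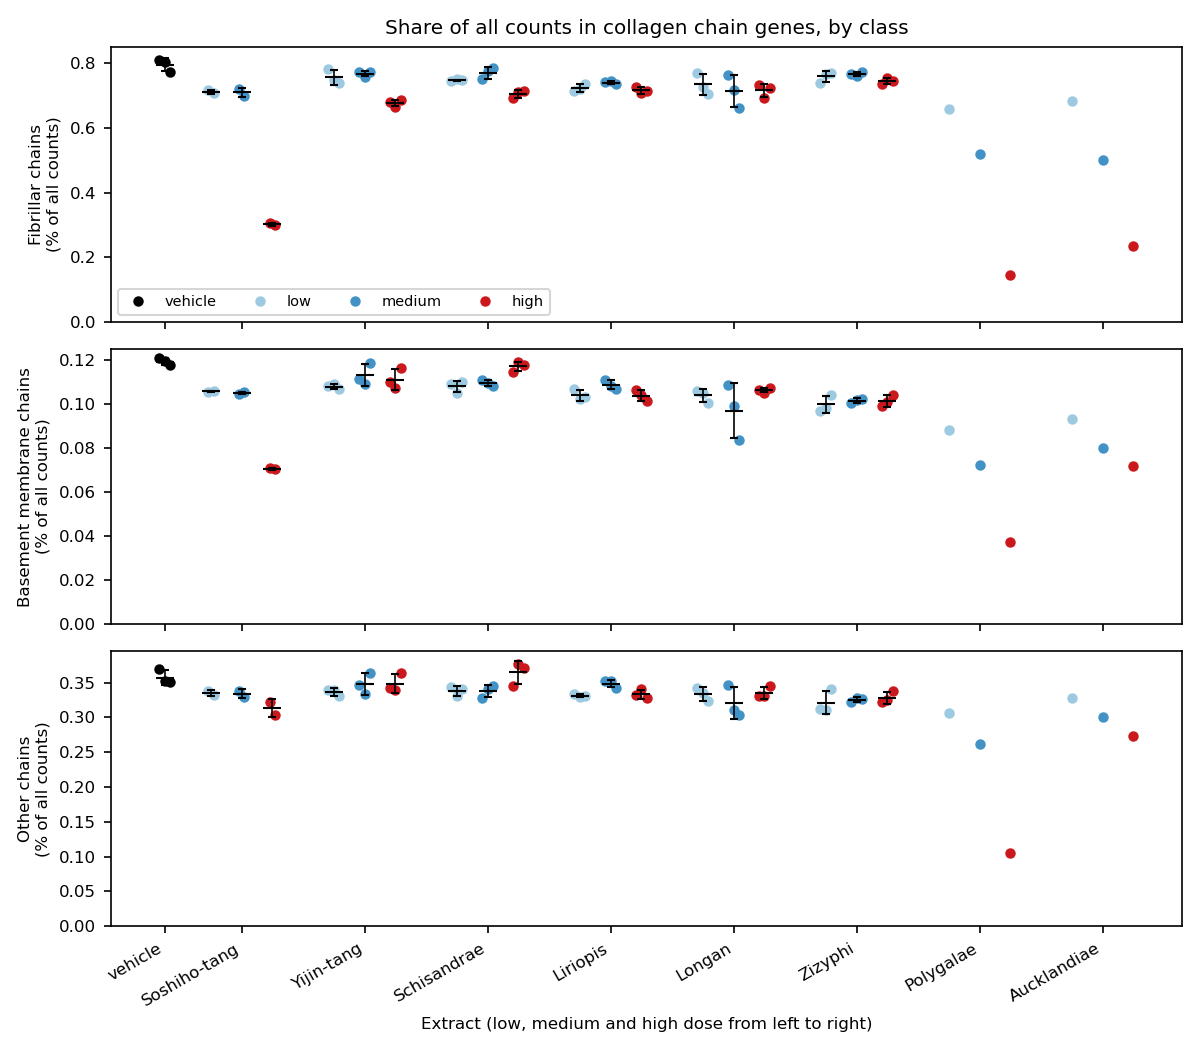
Share of all counts of a library that fell in fibrillar, type IV and other collagen chain genes (panels, in percent), by extract with low, medium and high dose from left to right. Points are libraries, with the mean and SD where a dose has 2 or 3. Fibrillar chains take 0.303% of counts at the Soshiho-tang high dose, against 0.712% at its low dose. The Polygalae high-dose library has 0.145%, against 0.659% at the low dose. The Aucklandiae high-dose library has 0.235%, against 0.682% at the low dose. Vehicle-treated cells, which have a library set of their own, have 0.796%.

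Fewer cells that express a chain and less RNA per cell cannot be told apart in these bulk libraries. Some marker sums rest mostly on 1 gene. In vehicle-treated cells VIM averaged 4768 CPM, where the astroglial sum was 4855 to 4909 CPM. KDR averaged 32.56 CPM there, where the endothelial sum was 32.45 to 36.3 CPM. THY1 took a large part of the fibroblast and mural sum, at 497.9 CPM there where that sum was 939.9 to 1001 CPM. The summed level of the 10 fibroblast and mural markers was 729 to 799 CPM at the Soshiho-tang high dose against 962 to 978 CPM at the low dose, 823 to 854 CPM at the Yijin-tang high dose against 931 to 955 CPM at the low dose, and 752 to 771 CPM at the Schisandrae high dose against 954 to 979 CPM at the low dose, where the collagen share was 1.19% at both doses. In the single libraries it was 319 CPM at the Polygalae high dose against 974 CPM at the low dose, and 594 CPM at the Aucklandiae high dose against 990.2 CPM at the low dose. The astroglial sum was 5404 to 5583 CPM at the Soshiho-tang high dose against 5149 to 5164 CPM at the low dose, 4315 to 4480 CPM at the Yijin-tang high dose against 4723 to 4746 CPM at the low dose, 4895 to 5224 CPM at the Schisandrae high dose against 4638 to 4827 CPM at the low dose, 5555 CPM at the Aucklandiae high dose against 5218 CPM at the low dose, and 733.2 CPM at the Polygalae high dose against 5544 CPM at the low dose. The endothelial sum was 36 to 38.9 CPM at the Soshiho-tang high dose against 31.9 to 32.9 CPM at the low dose, and the immune sum, nearly all CD68, was 222 to 239 CPM at the high dose against 202 to 209 CPM at the low dose. At the Schisandrae high dose the endothelial sum was 39.65 to 43.79 CPM against 33.35 to 34.09 CPM at the low dose, and the immune sum 252.9 to 264.5 CPM against 205 to 216.1 CPM at the low dose. Under Yijin-tang the endothelial sum was 29.53 to 33.88 CPM at the high dose against 29.59 to 33.02 CPM at the low dose, and the immune sum 227.8 to 252.5 CPM at the high dose against 212.3 to 223.6 CPM at the low dose. The endothelial sum was 14.2 CPM at the Aucklandiae high dose against 32.21 CPM at the low dose and 19.28 CPM at the Polygalae high dose against 26.92 CPM at the low dose. The immune sum was 271 CPM at the Aucklandiae high dose against 239.5 CPM at the low dose and 65.14 CPM at the Polygalae high dose against 213.9 CPM at the low dose. Mitochondrial counts were 13.1% at the Soshiho-tang high dose and 12.4% at the low dose, 20.3% at the Polygalae high dose and 14.2% at the low dose, and 10.1% at the Aucklandiae high dose and 14.9% at the low dose. Their part in the collagen differences was not tested.

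The genes that fold, process, degrade and sense collagen were read from lists, beside which stand the shares of all genes tested: 9.92% higher and 8.66% lower at the Soshiho-tang high dose, 22.3% higher and 23.6% lower at the Schisandrae high dose, and 3.61% higher and 3.39% lower at the Yijin-tang high dose. Of 19 folding and modification genes, 3 were lower and 1 higher at the Soshiho-tang high dose (median log2 -0.12, against 0.00 for all genes). P4HA1, a prolyl hydroxylase subunit, averaged 129.4 CPM at the high dose and 202.5 CPM at the low dose (log2 -0.65 ± 0.06, edgeR adjusted p = 2.64e-11). PLOD2, a lysyl hydroxylase, was lower (-0.47 ± 0.06), and MIA3, which helps load procollagen for export, was higher (0.385 ± 0.076). At the Schisandrae high dose 9 of these genes were higher and 2 lower (median 0.19), against 22.3% of all genes higher and 23.6% lower. P3H4, a partner of the lysyl hydroxylase complex, averaged 133.4 CPM at the high dose and 75.87 CPM at the low dose (log2 0.81 ± 0.07), P4HA2 was higher (0.33 ± 0.04), and FKBP10, a collagen chaperone, was higher (0.39 ± 0.05). PLOD2 (-0.37) and P4HA1 (-0.32) were lower there too.

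Of 12 tested genes of extracellular processing and crosslinking, 7 were lower and 1 higher at the Soshiho-tang high dose (median -0.23), against 8.66% of all genes lower and 9.92% higher. The procollagen N-proteinases ADAMTS2 (log2 -0.66 ± 0.06) and ADAMTS14 (-0.62 ± 0.09) and the crosslinking enzyme LOXL1 (-0.382 ± 0.085) had the lowest adjusted p. At the Schisandrae high dose, where 23.6% of all genes were lower and 22.3% higher, 6 were lower and 1 higher, with ADAMTS14 (-0.69 ± 0.07) and TLL1, a C-proteinase (-0.63 ± 0.10), lower and LOX, a lysyl oxidase, higher (0.53 ± 0.05). Of 8 degradation and uptake genes, 2 were lower and 1 higher under Soshiho-tang, against the same 8.66% and 9.92% of all genes: MRC2, the collagen uptake receptor, averaged 220.5 CPM at the high dose and 334 CPM at the low dose (-0.60 ± 0.055), the gelatinase MMP2 was lower (-0.43 ± 0.05), and the collagenase MMP1 was higher (0.25 ± 0.07). Under Schisandrae 4 were higher and 4 lower, against 22.3% and 23.6% of all genes, where MMP14, a membrane-bound collagenase, averaged 1589 CPM at the high dose and 842.2 CPM at the low dose (0.91 ± 0.05), MMP16 was lower (-1.09 ± 0.13) and FAP, a serine protease, was lower (-0.385 ± 0.053).

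Of 7 collagen receptors, 2 were higher and 1 lower at the Soshiho-tang high dose, against 9.92% of all genes higher and 8.66% lower: the receptor kinase DDR2 (log2 0.62 ± 0.13), the integrin subunit ITGA2 (0.54 ± 0.16) and ITGA10 (-0.96 ± 0.30, at 0.845 CPM at the high dose and 1.65 CPM at the low dose). At the Schisandrae high dose, where 23.6% of all genes were lower, 3 were lower, namely DDR1 (-0.265), ITGA1 (-0.27) and ITGA11 (-0.25). Of 11 genes of the TGF-beta pathway, a main inducer of collagen genes, 6 were lower and 0 higher under Soshiho-tang (median -0.19), with TGFB3 at 7.80 CPM at the high dose and 14.9 CPM at the low dose (-0.94 ± 0.10) and SMAD7 also lower (-0.52 ± 0.10). Under Schisandrae 3 were higher, SMAD3 (0.581 ± 0.045), TGFB1 (0.21) and SMAD4 (0.18), and 4 were lower, SMAD2 among them (-0.45 ± 0.04), with a median of 0.00. Under Yijin-tang 2 of the 11 were higher, SMAD3 (0.21) and TGFBR1 (0.23), and 2 were lower, CCN2 (-0.37) and SMAD7 (-0.26), and the other 4 lists had 1 called gene each except degradation and uptake with 2. Under Longan and Zizyphi each list had at most 1 called gene, and under Liriopis none had any. Of all genes tested, 0.936% were called for Longan, 5.78% for Zizyphi and 0% for Liriopis.

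The counting splits shared reads between genes for some chains. Values were not whole in 88.3% of libraries for COL18A1, 30% for COL3A1 and 15% for COL8A1, so these are less certain. COL18A1 also overlaps SLC19A1 on the opposite strand, whose median level was 47.9% of that of COL18A1, and COL4A1 and COL4A2 overlap at their starts in the annotation. The library kit keeps strand, but the strand setting of the counting is not given in the sources used here.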

How the data were processed

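RNA of 60 libraries was sequenced as 100-base paired ends on an MGI instrument after a directional kit, per the labels' protocols. The deposited table holds RSEM expected counts per Ensembl gene on GRCh38, not normalized. The submitters' processing notes name FastQC 0.11.9, Trim Galore 0.6.5, STAR 2.7.3a and RSEM 1.3.3, and the annotation release is not given in the sources used here. Of all values 10.86% were not whole, and counts were rounded. Symbols and positions came from GENCODE 29, which held 57055 of the 60675 gene IDs.

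Libraries were grouped by the treatment label. The 54 libraries of the 19 groups with 2 or 3 libraries were fitted together in edgeR 4.0.16 (R 4.3.3; quasi-likelihood, TMM scaling, filterByExpr by group, 17851 genes, 35 residual degrees of freedom), with Benjamini-Hochberg adjustment over all genes and a threshold of 0.05. Standard errors are the log2 difference divided by the root of F, and levels are CPM on TMM-scaled totals. Groups of 1 library were compared by log2 CPM with a prior count of 2, counting a difference of at least 2-fold with 5 CPM or more in either library. The fit was tested on simulated data.

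Members, gene lists and markers were chosen with earlier results of these data known. Followed in every extract were COL1A1, COL1A2, COL3A1, COL5A1, COL4A1, COL4A2, COL6A1 and COL6A3. Named besides were, per contrast, the 5 called chains with the largest change and, per list, the 3 called genes with the lowest adjusted p. One gene of the TGF-beta list is not reported here, and the counts of that list are without it. Other chains, COL6A2, COL12A1, COL17A1, COL4A5 and COL4A6 among them, were named after their values were seen. The 51 pairs of libraries of one group differed beyond sampling noise (chi-square per degree of freedom 2.24 to 55.64), so none was counted as a copy. Same-numbered libraries were checked for pairing by the correlation of their deviations: only Liriopis medium against low had all pairs above 0.1 (0.101 to 0.174), so replicate numbers were not used as a block. Total counts per library were 18.73 to 35.52 M, which sets the precision of low chains. Alternatives were DESeq2 1.42.0 and its size factors, other low-count filters, fits of only the compared groups, a replicate block, the vehicle as reference, and leaving out each library.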

Additional observations from a re-analysis of the deposited data

Results flagged for a closer look

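Dose effects on collagen chains were set against each other between extracts of the same library set in 3 direct comparisons within the edgeR fit. The high-minus-low difference differed in 14 chains between Soshiho-tang and Yijin-tang, all 14 more negative for Soshiho-tang, as were 4.3% of all genes tested. It differed in 15 chains between Schisandrae and Liriopis, with 6 more positive and 9 more negative for Schisandrae, beside 15% of all genes more positive and 16.1% more negative. Between Longan and Zizyphi it differed in 1 of 27 chains, COL7A1, a share near the 3.97% of all genes that differed. COL7A1 lost this call when only those groups were fitted (edgeR adjusted p = 0.0685).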

How the results depend on the processing

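Counts of called chains kept within 1.5 times of the reported value under DESeq2's size factors, a filter of 1 CPM in 3 libraries, DESeq2's Wald test, a fit of only the compared groups, no low-count filter and the replicate block, except where named here. Without a low-count filter Yijin-tang high dose had 4 chains. Longan minus Zizyphi had 2 in DESeq2's Wald test and 0 when only those groups were fitted. Only in Liriopis medium against low were all pairs correlated above 0.1, and its count was 0 with the replicate block too. Correlations of deviations ran from -0.054 to 0.246 in all comparisons. The highest was in replicate 3 of Longan medium against low. With the replicate block Longan high dose had 1 chain and Longan minus Zizyphi had 2, and no other count moved by over 1.5 times (Soshiho-tang high dose 18, Schisandrae high dose 19). Against vehicle in place of the low dose, high-dose counts (share of all genes called) were 14 for Yijin-tang (19.8%), 10 for Liriopis (4.09%), 10 for Longan (15.9%) and 8 for Zizyphi (13.3%), and medium-dose counts were 6 for Yijin-tang (14.2%), 10 for Soshiho-tang (4.2%), 10 for Liriopis (13%), 4 for Schisandrae (5.39%), 13 for Longan (25.2%) and 11 for Zizyphi (14.4%); the cause was not tested. In that setting COL4A2 (-0.023) and COL6A3 (-0.004) under Schisandrae changed sign.

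With each library left out in turn, the counts ran from 5 to 6 for Yijin-tang high dose, 15 to 17 for Soshiho-tang, 17 to 19 for Schisandrae, 2 to 3 for Zizyphi, 0 to 1 for Longan, 13 to 15 for Schisandrae minus Liriopis and 1 to 2 for Longan minus Zizyphi, and stayed at 14 for Soshiho-tang minus Yijin-tang and at 0 for Liriopis and for every medium dose. In the single libraries a fold of 1.5 gave 2 chains at the Polygalae medium dose and 4 at the Aucklandiae medium dose, and no CPM minimum gave 2 and 1. Shares of all genes by these looser rules are not given here, so these counts are not read as a result about the chains. For single chains named in the text, at least 19 calls were lost under other settings, 2 of them with a change of sign. At least 29 were lost with a library left out. These counts miss some named chains. Without Yijin-tang high-dose replicate 2, 5 chains were called against 8 in the full fit, and only the loss of COL3A1 was counted. Depth limits chains near 1 CPM, such as COL4A4 and COL5A3.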
